A study of Mus musculus with 70 samples.

Results

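The IL-33 and IL-18 receptor family comprised 8 genes chosen by name, the chains, co-receptors, decoy and inhibitor through which interleukins of the IL-1 family act on a cell, out of 53465 genes in the count table. Il1rl1 (ENSMUSG00000026069) encodes ST2, the IL-33 receptor, and Il1rap (ENSMUSG00000022514) the accessory chain that ST2, the IL-1 receptor and the IL-36 receptor share. Il18r1 (ENSMUSG00000026070) and Il18rap (ENSMUSG00000026068) encode the ligand-binding and the accessory chain of the IL-18 receptor. Il1r1 (ENSMUSG00000026072) encodes the signalling IL-1 receptor, Il1r2 (ENSMUSG00000026073) a decoy that binds IL-1 without signalling, Il1rl2 (ENSMUSG00000070942) the ligand-binding chain of the IL-36 receptor, and Sigirr (ENSMUSG00000025494) a receptor of the same family known as an inhibitor. All 8 genes passed the filter on low counts, which asked for 1 CPM, the counts of a gene per 1000000 counts of its library, in 10% of the libraries, and were tested.

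RNAseq was performed on Foxp3+ regulatory T cells (Tregs) sorted from spleen, blood, back skin, lungs, the lamina propria of the colon and visceral adipose tissue of the abdomen (VAT) of 5 male mice, 16.6 to 18.6 weeks old, which carried the allele Foxp3tm4(YFP/icre)Ayr on the strain background B6.129(Cg). In this line the Foxp3 gene drives a yellow fluorescent protein fused to Cre, so that every group, controls included, carried the reporter and Cre, and YFP together with CD4 marked the sorted cells. ST2+ CD44hi Tregs (ST2+ Tregs) and ST2- CD44hi Tregs (ST2- Tregs), both effector Tregs, came from all 6 tissues, and ST2- CD44lo CD62L+ central Tregs (cTregs) from spleen and lungs, which gave 14 groups of up to 220 cells per library. Lungs, VAT, colon and skin were digested with enzymes, and spleen and lungs were enriched for CD4+ cells on beads before the sort, so that tissue and preparation cannot be told apart. No gene was deleted and no mouse was treated.

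IL-33 is an alarmin released by damaged or stressed cells of barrier and adipose tissues, and IL-18 is matured by inflammasomes. Each cytokine joins its ligand-binding chain to an accessory chain, and the paired cytoplasmic domains recruit the adaptor MyD88 and IRAK kinases towards NF-kB. ST2 also exists as a soluble form that captures IL-33, and Tregs of adipose tissue, gut and skin are known for expressing ST2.

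Of 70 libraries, 67 held more than 1000000 counts and were used, with 1304560 to 2759926 counts each (median 2039002) and 11877 to 19119 genes detected. Of the other 3, 1 was blood ST2+ and 2 were colon ST2+, which left n = 4 and n = 3 in those groups and n = 5 in each of the remaining 12. Of the libraries used, 7 came from fewer than 220 cells. They were VAT ST2- Tregs of mice 2 to 5 (93, 192, 118 and 135 cells), blood ST2+ Tregs of mice 2 and 3 (202 and 55) and blood ST2- Tregs of mouse 1 (166). Every VAT ST2+ library came from 220 cells, so cell number and population partly coincide in VAT. In bulk samples of sorted cells, fewer cells that express a gene and less RNA per cell cannot be told apart. The 8 Treg markers all had counts in the CD44hi libraries, with a summed level of 3361 to 6613 CPM.

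Of the 8 genes, 6 lay in 1 block of chromosome 1 (GRCm38), all on the + strand, within 477627 bp. In this order they were Il1r2 (chr1:40074079-40125231), Il1r1 (chr1:40225080-40317257), Il1rl2 (chr1:40324610-40367562), Il1rl1 (chr1:40429570-40465415), Il18r1 (chr1:40465552-40500854) and Il18rap (chr1:40515362-40551705). The gap from the end of Il1rl1 to the start of Il18r1 was 136 bp, and that from Il18r1 to Il18rap 14507 bp. Il1rap lay at chr16:26581704-26730117 on the + strand and Sigirr at chr7:141091175-141100572 on the - strand. Il1rap shared 552 bp of exon with the antisense gene Gm20319, which had 2 counts in all libraries used, and no other member shared exon sequence with an annotated gene. The annotation (GENCODE M21) lists 5 protein-coding transcripts of Il1rl1, of which 2 end at 40465396 and 40465415 and 3 end between 40441407 and 40448148. The counts are per gene and do not separate the long forms from the short ones.

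The promoters of 2 genes of the block are shown because Gata3, which encodes a transcription factor that binds GATA motifs, was the gene with the level most similar to that of Il1rl1 over the libraries (given below), and because Il18rap was the neighbour that was higher in ST2+ Tregs on average over the 6 tissues. Matches to the letters AGATAA, the letters AGATAG, the letters TGATAA and the letters TGATAG were searched on both strands in RefSeq windows (GRCm38.p6) from 250 bases before to 50 bases after each transcript start, and are in capitals. The 250 bases before the start are printed, all on the + strand: the outer start of Il1rl1 (chr1:40429320-40429569), its inner start (chr1:40439379-40439628) and the start of Il18rap (chr1:40515112-40515361).
Il1rl1, outer start: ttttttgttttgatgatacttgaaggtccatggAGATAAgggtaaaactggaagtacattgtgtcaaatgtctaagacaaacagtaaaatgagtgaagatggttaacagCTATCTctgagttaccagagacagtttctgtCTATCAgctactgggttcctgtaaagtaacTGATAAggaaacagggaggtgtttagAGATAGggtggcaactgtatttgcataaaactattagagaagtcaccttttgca
Il1rl1, inner start: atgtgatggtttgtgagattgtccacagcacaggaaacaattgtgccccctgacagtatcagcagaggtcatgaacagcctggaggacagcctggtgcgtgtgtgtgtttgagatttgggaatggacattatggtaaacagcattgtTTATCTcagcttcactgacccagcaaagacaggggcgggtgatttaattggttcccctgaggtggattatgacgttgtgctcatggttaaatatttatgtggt
Il18rap: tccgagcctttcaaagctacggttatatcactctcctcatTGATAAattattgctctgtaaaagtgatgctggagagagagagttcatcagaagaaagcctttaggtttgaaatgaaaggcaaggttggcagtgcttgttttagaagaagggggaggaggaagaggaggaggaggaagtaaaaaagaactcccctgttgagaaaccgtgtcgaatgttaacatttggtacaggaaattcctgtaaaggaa

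The outer window of Il1rl1 held 5 matches, 217, 141, 110, 80 and 54 bases before the start, the inner window held 1 and the Il18rap window held 1. In GENCODE M21 the outer start is that of a short form, which ends at 40446723. The long forms start at 40439627, near the inner start, and at 40440628. Counts per gene do not show which start was used. Among all 32851 windows of 27025 genes, 29.8% held at least 1 match and 18 windows, or 0.0548%, held 5 or more. A window was given for 7 members, 11 windows in all, and Sigirr had none. The window of Il1r2 held 1 match, while the 3 windows of Il18r1, the 2 of Il1r1 and those of Il1rl2 and Il1rap held 0. These matches describe letters and show no binding, and where no match was found only these letters are missing from these windows.

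Levels of the 8 genes were compared per kilobase of exon, since longer genes collect more reads. The length used was that of all annotated exons of a gene together. It was 11360 bp for Il1rap, whose longest transcript has 4520 bases, and 6894 bp for Il1rl1, whose longest has 5302. Orders and ratios between genes depend on this choice, which lowers Il1rap more than Il1rl1. Averaged over the 67 libraries, Sigirr stood at 85.4 CPM per kb, Il1r2 at 62.2, Il1rl1 at 53.1, Il18r1 at 45.1, Il18rap at 22.0, Il1rap at 2.98, Il1rl2 at 0.578 and Il1r1 at 0.394. Sigirr, Il18r1 and Il1rap had counts in all 67 libraries, whereas Il1rl2 had counts in 36 and Il1r1 in 17. The gene with the most CPM per kb was Il1rl1 in ST2+ Tregs of lungs (131), VAT (177) and colon (88.7), Il1r2 in skin (241 in ST2+ Tregs and 200 in ST2- Tregs) and Sigirr in the other 9 groups. On the average over all libraries the accessory chain Il1rap lay below Il1rl1 and Il18r1, an order that did not hold in every group. The median ratio of Il1rl1 to Il1rap per kb, over libraries with counts of both, was 13.4 to 64.7 in the ST2+ groups but 0.169 in ST2- Tregs of blood, 0.0543 in those of spleen and 0.279 in those of lungs.

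**Figure D1:**
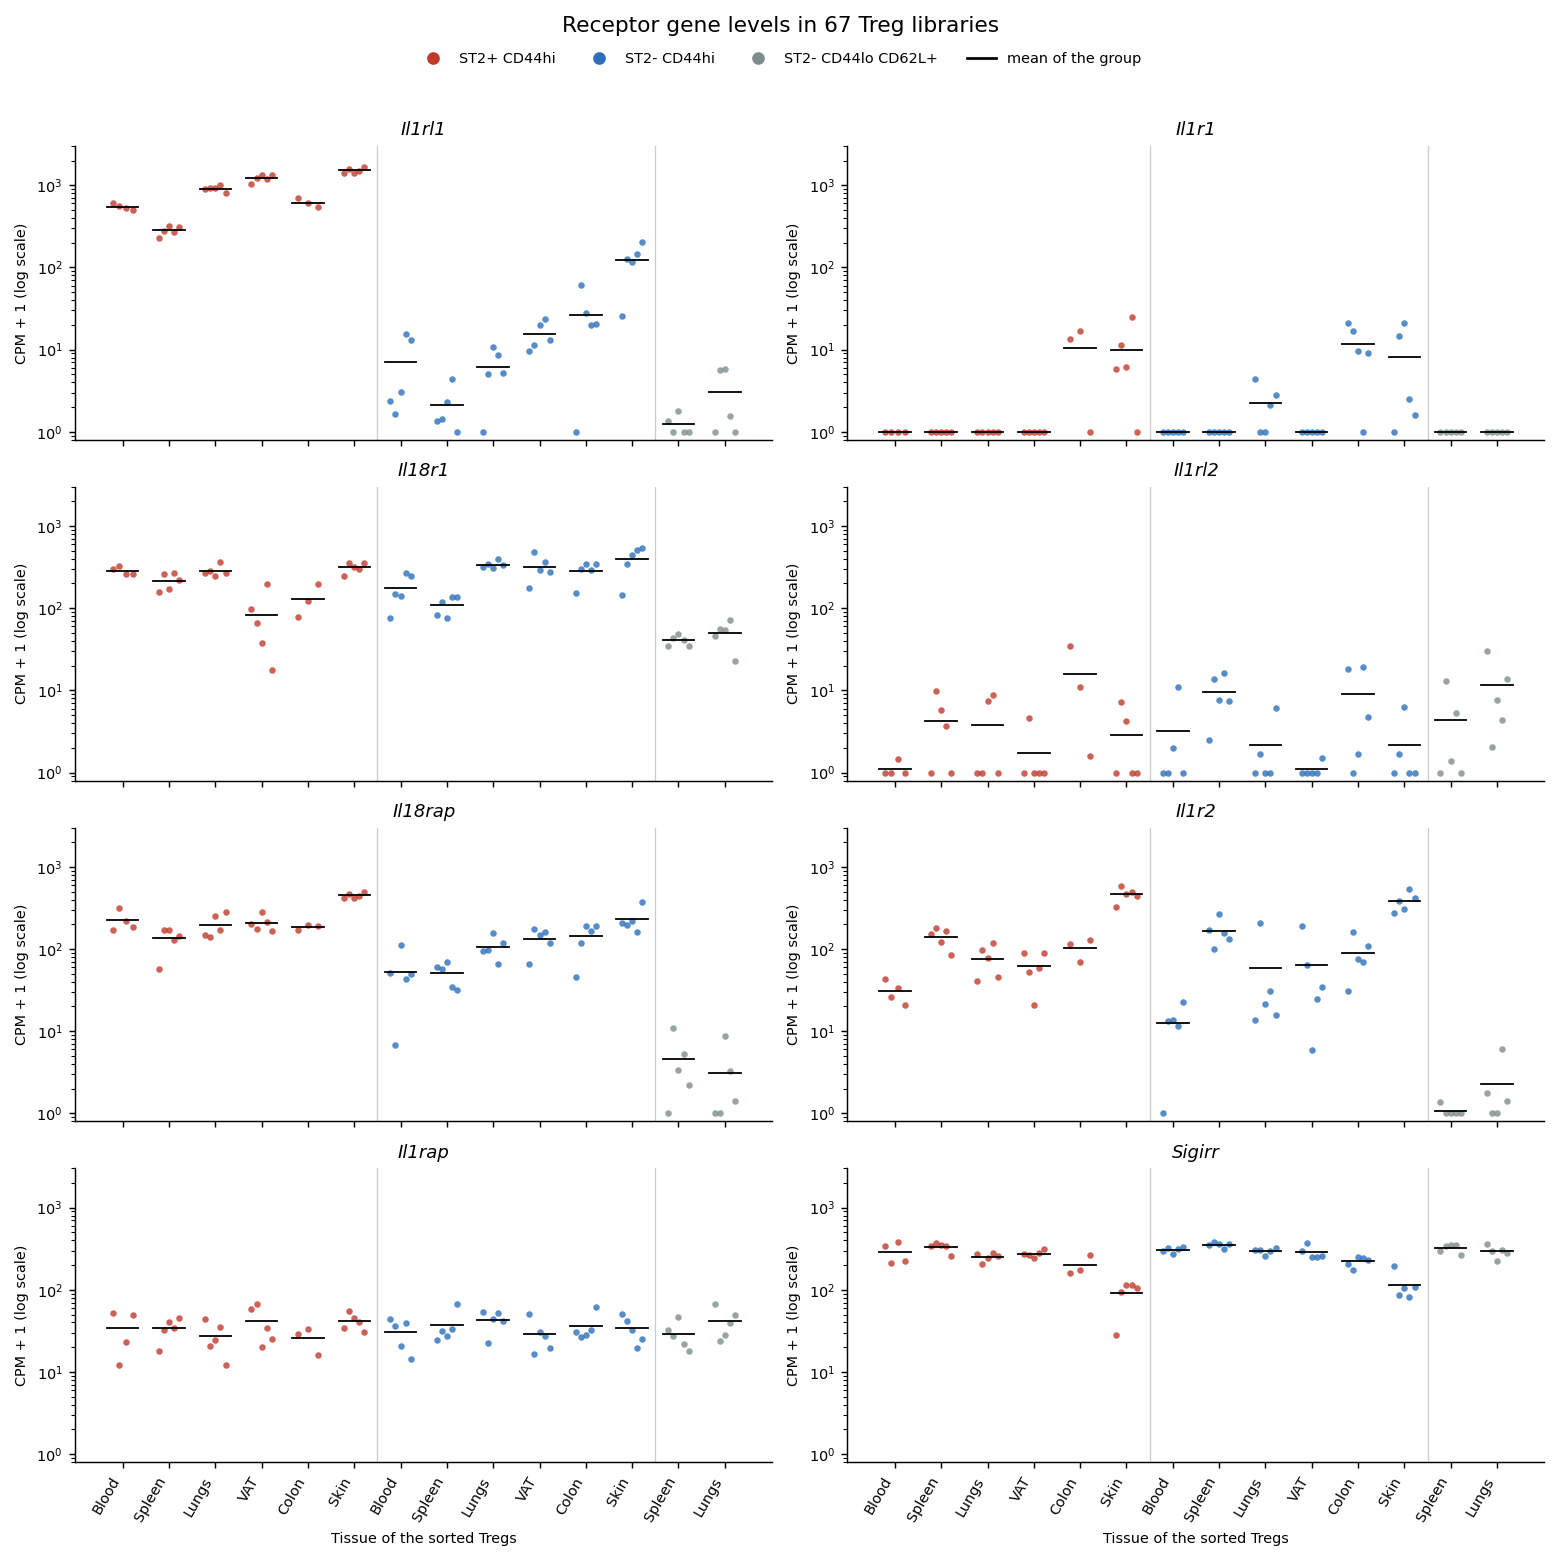
Level of each of the 8 receptor genes in every library used, as CPM + 1 on a log axis, with 1 panel per gene and the 14 groups along the horizontal axis; each point is 1 library and each black bar the group mean. Il1rl1 was high in all ST2+ groups and lowest in spleen cTregs, Il1r2 was highest in skin, Sigirr was lowest in skin, and Il1rap stayed between 11 and 66.9 CPM throughout.

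Il1rl1 was examined first, because its protein ST2 was the surface marker of the sort, so that its difference between ST2+ and ST2- Tregs checks the labels and is no finding. ST2+ libraries, in order of mouse number, held 612, 551, 527 and 498 CPM in blood, 228, 274, 322, 269.7 and 312 in spleen and 893, 932, 921, 992 and 793 in lungs. They held 1401, 1582, 1420.2, 1492 and 1671 CPM in skin, 1047, 1218, 1342, 1183 and 1317 in VAT and 691, 605 and 538 in colon. Spleen was the low end among ST2+ Tregs and its libraries overlapped with those of no other tissue.

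ST2- libraries held 1.36, 0.644, 2.01, 14.3 and 12.2 CPM of Il1rl1 in blood, 0.370, 0.428, 1.32, 3.38 and 0 in spleen and 0, 4.07, 9.64, 7.67 and 4.14 in lungs. In VAT they held 8.51, 10.2, 18.7, 22.9 and 12.2 CPM, in colon 0, 60.8, 27.1, 18.7 and 19.5, and in skin 24.4, 124, 115, 145 and 206. Every ST2+ library was above every ST2- library of its tissue, and ST2- Tregs of skin were the ST2- group with the highest mean. In cTregs, Il1rl1 reached at most 0.784 CPM in spleen and 4.81 CPM in lungs.

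The ST2+ over ST2- difference of Il1rl1 passed the test in 6 of 6 tissues and in 27 of 27 pairs of libraries from the same mouse. A gene was called where edgeR's quasi-likelihood test over 13179 genes gave a p, adjusted by the method of Benjamini and Hochberg, of 0.05 or less and the groups differed by 1.5-fold or more. The log2 fold change ± SE was 7.98 ± 0.62 in spleen (adjusted p = 1.17e-14), 7.37 ± 0.54 in lungs (6.4e-16), 6.50 ± 0.53 in blood (9.39e-14), 6.40 ± 0.49 in VAT (5.58e-15), 4.62 ± 0.47 in colon (8.42e-10) and 3.63 ± 0.41 in skin (1.67e-08). These are 253-fold in spleen and 12.4-fold in skin at either end.

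How far the Il1rl1 difference varied among tissues was tested as an interaction of tissue and ST2, which was called for 1.40% of all tested genes and for 2 of the 8 members, Il1rl1 (adjusted p = 0.000167) and Il18r1. Without Il1rl1 it was called for 1 of 7 members. The Il1rl1 result is a description, since the sort split its groups by ST2, and spleen ST2- Tregs held only 13 counts of it. For Il1rl1, 4 of the 15 pairs of tissues differed, each of them with skin. The difference in skin was smaller than in spleen by 4.35 ± 0.79 log2 units (adjusted p = 0.00322), than in lungs by 3.73 ± 0.64 (0.00158), than in blood by 2.86 ± 0.65 (0.0106) and than in VAT by 2.77 ± 0.58 (0.0064). Both sides moved in skin, with a mean ± SD of 1513 ± 113 CPM in ST2+ Tregs and 123 ± 65.3 CPM in ST2- Tregs (n = 5 each).

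In the order of the 14 groups, ST2+ Tregs ran from skin (1513 CPM) through VAT (1221 ± 118), lungs (906 ± 72.8), colon (611 ± 76.4, n = 3) and blood (547 ± 48.7, n = 4) to spleen (281 ± 37.4), followed by ST2- Tregs of skin (123), colon (25.2 ± 22.3), VAT (14.5 ± 6.05), blood (6.10 ± 6.59) and lungs (5.10 ± 3.72). Lungs cTregs (2.02 ± 2.52), ST2- Tregs of spleen (1.10 ± 1.36) and spleen cTregs (0.230 ± 0.348) came last. Only 2 of the 13 steps between neighbours were called, that from spleen ST2+ to skin ST2- Tregs (1.21 ± 0.39 log2 units, adjusted p = 0.013) and that from skin ST2- to colon ST2- Tregs (2.29 ± 0.43, adjusted p = 6.08e-05). By its mean, the skin ST2- group lay below every ST2+ group and above every other ST2- group. Neighbours were picked by the order of these same means, so the steps and their calls are a description.

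Il1rl1 also differed among tissues within each population. The F test over the 6 tissues had an adjusted p of 7.07e-06 in ST2+ Tregs, where 47.5% of all tested genes were called, and of 4.91e-16 in ST2- Tregs, where 43.3% were. In ST2+ Tregs, Il1rl1 was higher than in spleen by 1.69 ± 0.38 log2 units in lungs (adjusted p = 0.00176), 2.12 ± 0.38 in VAT (3.6e-05) and 2.43 ± 0.39 in skin (1.04e-06). The value in blood was 0.96 ± 0.39 (adjusted p = 0.156) and in colon 1.12 ± 0.42 (0.0729) and neither was called, although the ranges did not overlap those of spleen. With mouse as a block the colon value was 1.28 (adjusted p = 0.0225), and the lungs call was lost in DESeq2 (0.0549). In ST2- Tregs it was higher than in spleen by 3.70 ± 0.73 in VAT (adjusted p = 0.000296), 4.48 ± 0.69 in colon (1.9e-06) and 6.78 ± 0.63 in skin (1.69e-13), and the values of blood (2.45 ± 0.85) and lungs (2.30 ± 0.86) missed the threshold. Both were called in DESeq2 (adjusted p = 0.0170 and 0.0383) and without mouse 1 (0.0230 and 0.0332), and voom called blood (6.19e-05) and colon (9.31e-07) in ST2+ Tregs.

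Mast cells and innate lymphoid cells of type 2 can express ST2 too, so their markers are given beside these values. The summed level of 6 mast cell markers was 26.3 to 662 CPM in skin ST2+ Tregs and 23.1 to 89.7 CPM in skin ST2- Tregs, 40.9 to 99.6 in colon ST2+, 7.82 to 43.7 in colon ST2- and 9.20 to 28.5 in lungs ST2+ Tregs, against 0 to 8.51 CPM in spleen. In skin ST2- and colon ST2+ Tregs only Kit had counts among the 6, while Cpa3, Mcpt4, Tpsb2, Fcer1a and Ms4a2 were at 0. In colon ST2- and lungs ST2+ Tregs Mcpt4, Tpsb2, Fcer1a and Ms4a2 were at 0, and in skin ST2+ Tregs Fcer1a was. The summed level of 4 markers of type 2 innate lymphoid cells was 149 to 340 CPM in skin ST2- Tregs, where Il5 was at 0, 83.0 to 275 in skin ST2+ Tregs, 99.1 to 294 in VAT ST2+ Tregs, 0 to 36.8 in VAT ST2- Tregs and 0 to 15.8 in spleen. It was 143 to 261 CPM in colon ST2+, 53.9 to 189 in colon ST2- and 33.5 to 129.6 in lungs ST2+ Tregs. Over the 67 libraries Calca reached 340 CPM and Nmur1 162, but Il5 at most 59.7 and Il13 at most 6.21. The part of such cells in the Il1rl1 levels was not tested.

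Il1rap, the shared accessory chain, was called in no comparison of groups. Group means ran from 25.2 to 41.9 CPM, a 1.67-fold span, and single libraries from 11 to 66.9 CPM. Over the 18 comparisons made for each gene (6 of ST2+ with ST2- Tregs, 10 of a tissue with spleen and 2 of ST2- Tregs with cTregs), its log2 fold change lay between -0.67 and 0.51, the smallest adjusted p was 0.565, and the 95% intervals reached from -1.45 to 1.30. Levels within a group overlapped those of all other groups, and the tests over the 6 tissues did not call it either (adjusted p = 0.589 in ST2+ and 0.817 in ST2- Tregs). These intervals have width on both sides of 0, so the tests do not show that its level was equal in all groups.

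Apart from Il1rl1, ST2+ and ST2- Tregs of the same tissue differed in 2 of 42 member-by-tissue values. Il18rap was higher in blood ST2+ Tregs and Il18r1 was lower in VAT ST2+ Tregs. Over all tested genes the called share was 4.07% in blood, 3.13% in VAT, 0.751% in lungs, 0.349% in spleen, 0.228% in skin and 0.0683% in colon. The median log2 fold change of 6 members (without Il1rl1, and without Il1r1 for its zero groups) lay between -0.10 and 0.42 in the 6 tissues, beside -0.01 to 0.03 over all tested genes.

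**Figure D2:**
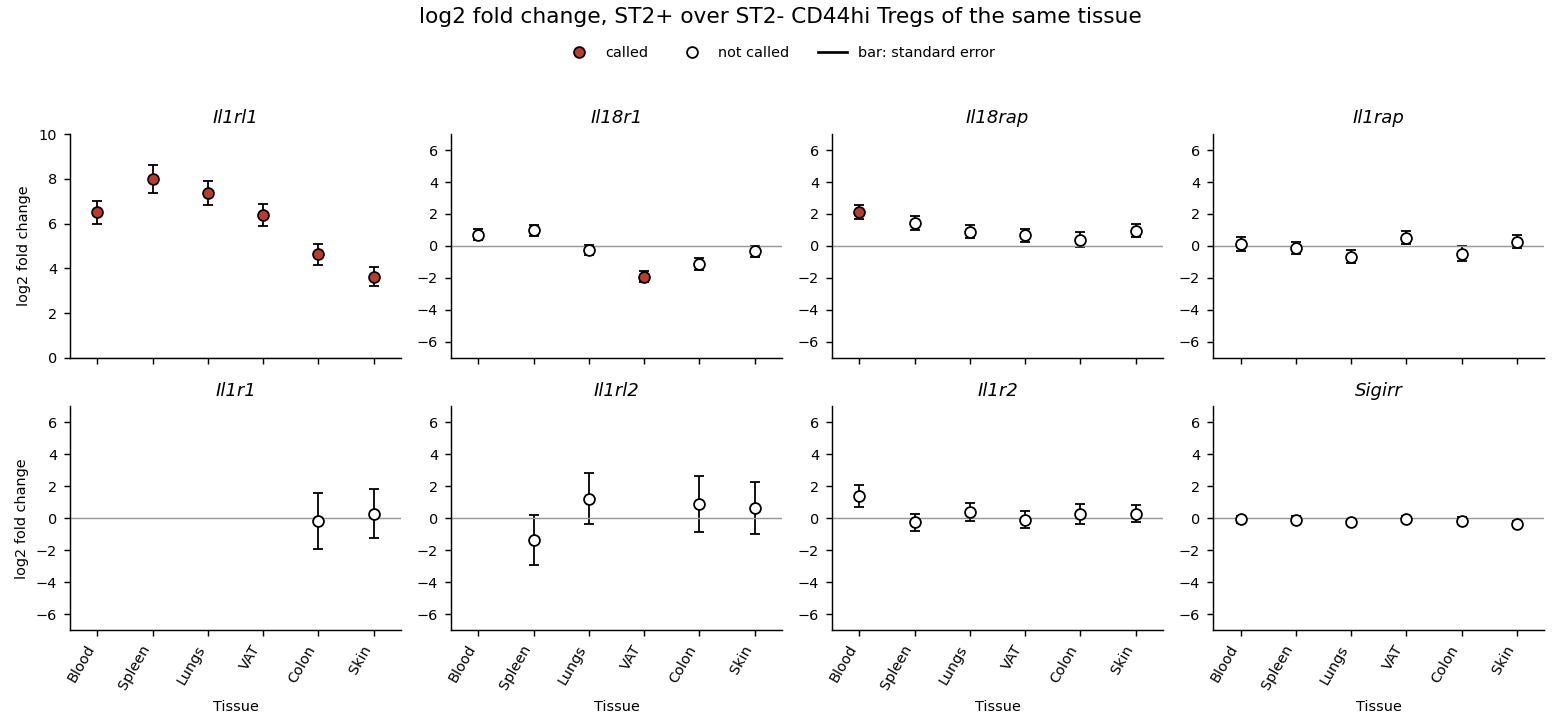
Log2 fold change of ST2+ over ST2- Tregs of the same tissue for each receptor gene, with bars for the standard error, 1 panel per gene and the 6 tissues along the horizontal axis; filled points passed the test, the axis of Il1rl1 differs from the others, and comparisons in which a group held 3 counts or fewer are left out. Il1rl1 stood between 3.63 and 7.98 in all tissues, Il18rap lay above 0 in all 6 and Il18r1 on both sides of 0.

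Il18rap, the accessory chain of the IL-18 receptor, held 169, 317, 221 and 182 CPM in ST2+ Tregs of blood (mice 2 to 5) and 50.3, 5.80, 110.1, 41.9 and 48.7 CPM in ST2- Tregs of blood (mice 1 to 5). The groups did not overlap, and the difference of 2.10 ± 0.44 log2 units (4.29-fold, adjusted p = 0.00128) was seen in 4 of 4 mice. In skin, ST2+ libraries held 416, 468, 413, 439 and 498 CPM and ST2- libraries 203, 194, 217, 159.6 and 374, again without overlap, but the value of 0.96 ± 0.40 missed the threshold (adjusted p = 0.438).

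The remaining tissues gave values in the same direction for Il18rap, 1.43 ± 0.41 in spleen (adjusted p = 0.153), 0.90 ± 0.40 in lungs (0.414), 0.66 ± 0.40 in VAT (0.405) and 0.39 ± 0.46 in colon (1). Averaged over the 6 tissues, Il18rap was 1.07 ± 0.17 log2 units higher in ST2+ Tregs (2.11-fold, adjusted p = 4.69e-06), and it was higher in 26 of 27 pairs of the same mouse. It was the only 1 of the 7 members beside Il1rl1 called for this mean, for which 4.21% of all tested genes were called. The interaction test did not call Il18rap, so that no difference among tissues was shown.

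Il18r1, the ligand-binding chain, went the other way in VAT. ST2+ libraries of VAT held 96.3, 65.9, 36.9, 197 and 16.7 CPM and ST2- libraries 174, 484, 289, 362 and 273. The ranges overlapped in a single ST2+ library, mouse 4, and in each of the 5 mice the ST2+ library was lower than the ST2- library. The difference was -1.92 ± 0.34 log2 units (3.79-fold lower in ST2+ Tregs, adjusted p = 0.000144).

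In spleen the order was reversed, with 155, 259, 172, 270.2 and 218 CPM of Il18r1 in ST2+ libraries and 80.7, 117, 74.0, 134 and 137 in ST2- libraries. These groups did not overlap, but the value of 0.98 ± 0.33 was not called (adjusted p = 0.42). Blood gave 0.69 ± 0.35 (adjusted p = 0.269), lungs -0.24 ± 0.33 (0.972), colon -1.13 ± 0.40 (0.609) and skin -0.34 ± 0.33 (0.922). The interaction of tissue and ST2 was called for Il18r1 (adjusted p = 0.000512), and 2 of the 15 pairs of tissues differed, VAT from blood by 2.62 ± 0.49 (adjusted p = 0.000972) and VAT from spleen by 2.90 ± 0.48 (0.00028). The interaction call was lost without mouse 2 (adjusted p = 0.0636) and without mouse 3 (0.0747).

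Because the 2 IL-18 receptor chains act as a pair, their ratio was taken per library on the per-kb scale, as a description. Il18rap per Il18r1 was 0.775 to 7.10 in VAT ST2+ Tregs against 0.258 to 0.359 in VAT ST2- Tregs, and 0.694 to 1.58 against 0.210 to 0.413 in colon. The ranges did not overlap in these 2 of the 6 tissues. In skin the ratio was 0.930 to 1.19 in ST2+ Tregs and 0.222 to 1.01 in ST2- Tregs, in blood 0.399 to 0.697 and 0.0278 to 0.554, in lungs 0.329 to 0.751 and 0.117 to 0.362, and in spleen 0.260 to 0.71 and 0.161 to 0.658. Within mice the ratio was higher in the ST2+ library in 26 of 27 pairs. Il18rap itself was at 166 to 282 CPM in VAT ST2+ and 63.8 to 175 CPM in VAT ST2- Tregs.

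**Figure D3:**
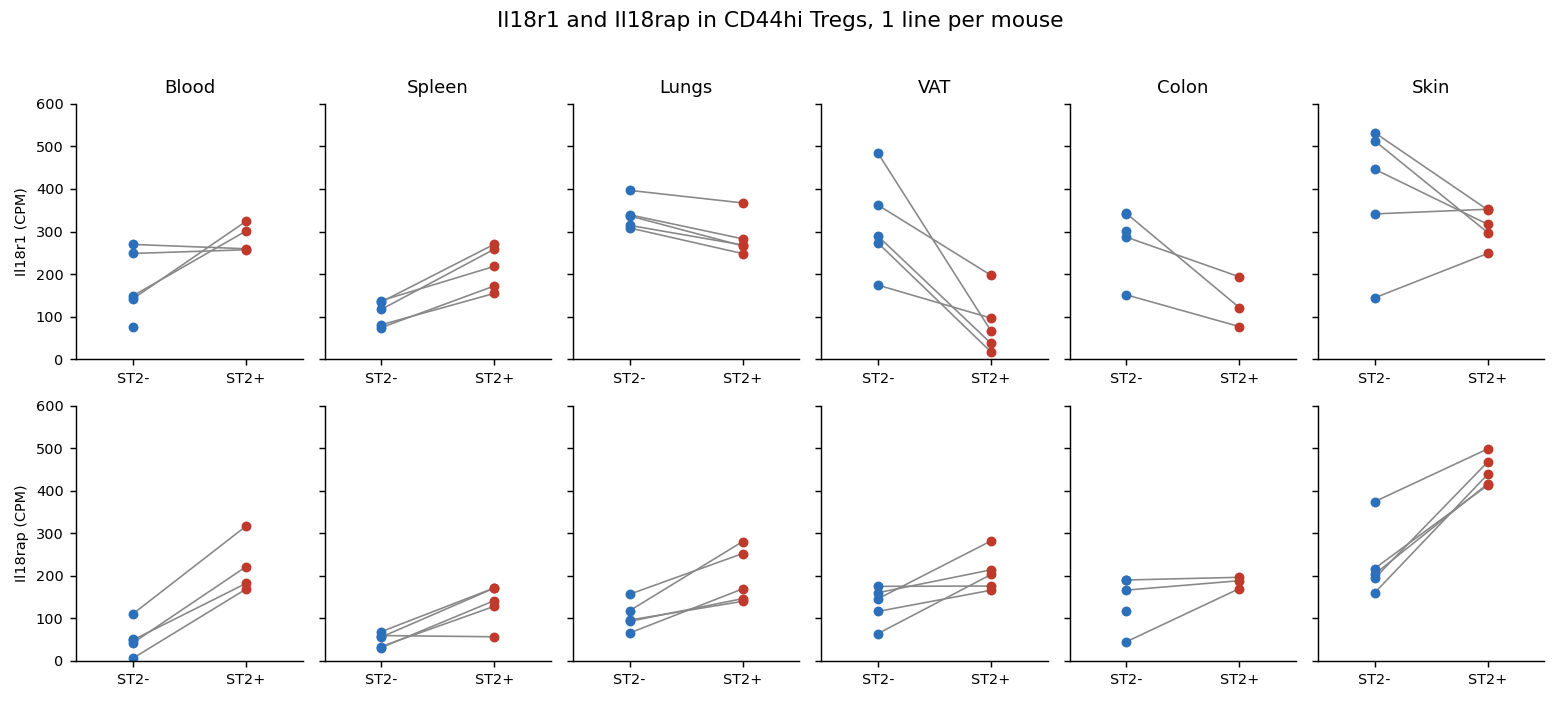
Il18r1 and Il18rap in ST2+ and ST2- Tregs of each tissue, in CPM on a linear axis, with lines that join the 2 libraries of 1 mouse. Il18rap was higher in the ST2+ library in 26 of 27 pairs, and Il18r1 in 10 of 27 and in none of the 5 VAT pairs.

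Il1r2, the decoy receptor, was not called between ST2+ and ST2- Tregs in any tissue. In skin, ST2+ libraries held 324, 579, 464, 490.0 and 444 CPM and ST2- libraries 275, 385, 302, 534 and 417, so that the groups overlapped. Blood gave the value farthest from 0, 1.39 ± 0.67 (adjusted p = 0.237), and the other tissues lay between -0.24 and 0.41. The ST2+ library was the higher one in 18 of 27 pairs.

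Sigirr, the inhibitory member, had log2 fold changes of -0.37 to -0.06 in the 6 tissues with no call, and was higher in the ST2+ library in 9 of 27 pairs. Il1rap was higher in 14 of 27 pairs. Il1rl2 and Il1r1 had too few counts for a pattern by pairs, with 559 and 259 counts over all libraries used.

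Tests over the 6 tissues called 6 of 8 members in each population, all but Il1rap and Il1rl2, beside 47.5% of all tested genes in ST2+ and 43.3% in ST2- Tregs. Of 80 differences between a tissue and spleen 26 were called. Without Il1r1, which had to differ because it passed the filter on low counts only through the groups where it was high, these counts were 5 of 7 in each population and 22 of 70. With mouse as a block the test in ST2+ Tregs called Il1rl2 too (adjusted p = 0.0481). In ST2+ Tregs the members called were 5 of 8 in skin (29.1% of all tested genes), 2 in VAT (11.3%), 2 in colon (10.4%), 1 in lungs (4.91%) and 1 in blood (4.22%). In ST2- Tregs they were 5 in skin (30.9%), 5 in colon (11.1%), 3 in VAT (5.96%), 1 in lungs (4.13%) and 1 in blood (3.57%). All 5 comparisons of a population share the same spleen libraries, so they are not independent of each other.

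**Figure D4:**
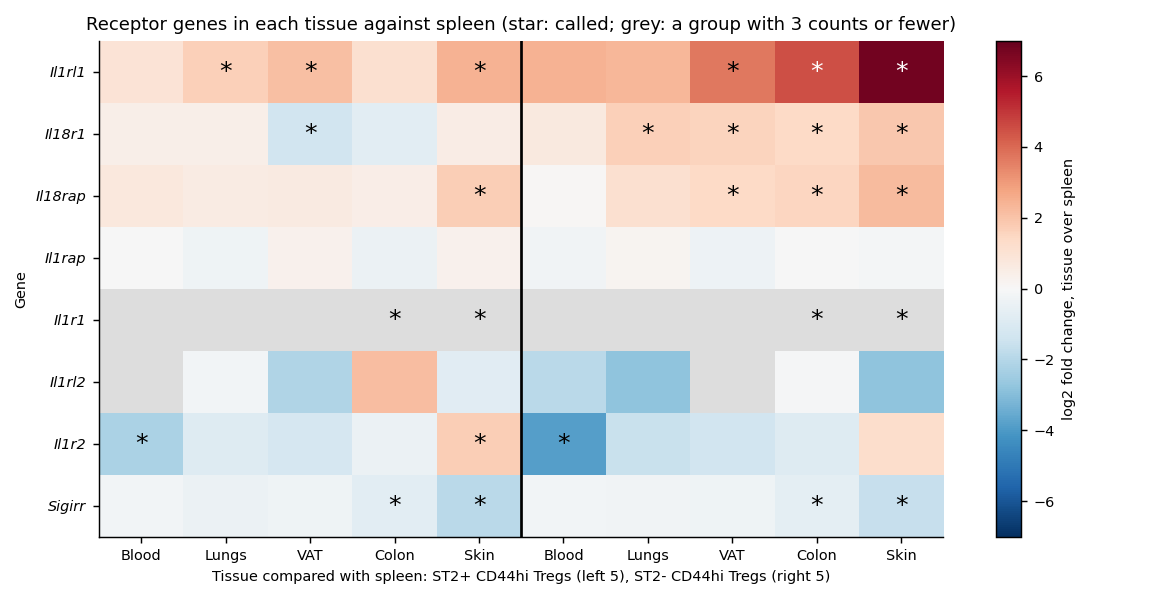
Heat map of the log2 fold change of each tissue over spleen for the 8 receptor genes in ST2+ and in ST2- Tregs; red is higher and blue lower than spleen, a star marks a difference that passed the test, and grey marks comparisons in which a group held 3 counts or fewer. Skin was higher for Il1rl1 and Il18rap and lower for Sigirr in both populations, and Il18r1 was lower in VAT ST2+ Tregs and higher in VAT ST2- Tregs.

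The F test over tissues called Il18rap in both populations, at an adjusted p of 0.00495 in ST2+ Tregs (0.0625 without mouse 4) and 2.87e-05 in ST2- Tregs. Il18rap was higher in skin than in spleen by 1.74 ± 0.41 log2 units in ST2+ Tregs (adjusted p = 0.000584) and by 2.21 ± 0.42 in ST2- Tregs (2.68e-05). Spleen libraries held 56.4, 171, 171, 128 and 142 CPM of Il18rap in ST2+ Tregs and 59.2, 55.6, 68.3, 33.4 and 30.9 in ST2- Tregs, all below the skin libraries of their population. Il18r1 was higher than in spleen by 1.86 ± 0.34 in skin ST2- Tregs (adjusted p = 1.34e-05), whose libraries held 144, 341, 447, 513 and 533 CPM.

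Calls of Il18r1 against spleen in the remaining tissues were as follows. In ST2- Tregs it was higher than in spleen in lungs (1.64 ± 0.34, adjusted p = 0.000606), VAT (1.54 ± 0.34, 0.00122) and colon (1.39 ± 0.34, 0.00281). In ST2+ Tregs the only call was VAT, where it was lower by 1.36 ± 0.34 on the log2 scale than in spleen (adjusted p = 0.00321). The difference between the populations was called for VAT against spleen, as given above, but not for lungs (1.23 ± 0.47, adjusted p = 0.969) or colon (2.11 ± 0.52, 0.231) against spleen. Lungs ST2- libraries held 314, 339, 308, 397 and 337 CPM, and colon ST2- libraries 151, 301, 343, 287 and 341. The call in VAT ST2+ Tregs was lost without mouse 2 (adjusted p = 0.0512), and that in colon ST2- Tregs without mouse 3 (0.0569).

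Il18rap was higher than in spleen in ST2- Tregs of VAT (1.41 ± 0.41, adjusted p = 0.0238) and colon (1.51 ± 0.42, 0.00954), with 1.10 ± 0.41 in lungs (0.125). Voom called the lungs value (1.21, adjusted p = 0.0121). The VAT call was lost with all 70 libraries (adjusted p = 0.0526), with cell number as a covariate (0.139), without libraries of fewer than 100 cells (0.0619) and without mice 2, 4 or 5 (0.0596, 0.204 and 0.128), and the colon call without mice 4 or 5 (0.0977 and 0.107). The skin calls of both populations held in 13 of 13 alternatives.

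Il1r2 had its low end in blood and its high end in skin. Blood ST2+ libraries held 41.6, 25.1, 32.1 and 19.9 CPM and blood ST2- libraries 0, 12.2, 12.6, 10.6 and 21.9, against 151, 179, 121, 163 and 83.2 in spleen ST2+ and 168, 99.2, 267, 158 and 131 in spleen ST2- libraries. Blood was below spleen without overlap in both populations, by 2.24 ± 0.63 log2 units in ST2+ Tregs (adjusted p = 0.0242) and by 3.87 ± 0.64 in ST2- Tregs (2.75e-05). The ST2+ call was lost with cell number as a covariate (adjusted p = 0.125), without libraries of fewer than 100 cells (0.0752) and without mice 3, 4 or 5 (0.105, 0.0906 and 0.0983).

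Skin ST2+ Tregs were above spleen in Il1r2 by 1.72 ± 0.55 (adjusted p = 0.0117; 0.0599 without mouse 5), and skin ST2- Tregs gave 1.22 ± 0.54 (0.0725). In lungs ST2- Tregs 1 library stood apart, with 12.7, 208, 20.5, 30.1 and 14.7 CPM in mice 1 to 5. The value against spleen was -1.55 ± 0.56 (adjusted p = 0.106) with that library and -3.21 without mouse 2 (0.000458), and -1.91 with mouse as a block (0.0284). In VAT ST2- Tregs, with 192, 62.2, 4.92, 23.4 and 33.6 CPM, it was -1.36 ± 0.55 (adjusted p = 0.126), and -2.44 without mouse 1 (0.00344). Voom called Il1r2 against spleen in ST2- Tregs of skin (1.27, adjusted p = 4.81e-06) and lungs (-2.30, 0.000124). It also called VAT (-2.40, adjusted p = 0.00815) and colon (-0.99, 0.0426) in ST2- Tregs, and lungs (-0.99, 0.0473) in ST2+ Tregs.

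Sigirr was the member that was lower in skin and colon. Skin ST2+ libraries held 27.6, 91.9, 113, 114 and 104 CPM and skin ST2- libraries 196, 84.3, 103, 81.3 and 108, against 339.8, 371, 351, 338 and 258 in spleen ST2+ and 348, 378, 360.1, 311 and 355 in spleen ST2- libraries. The skin and spleen groups did not overlap in either population, and the differences were -1.89 ± 0.20 log2 units in ST2+ Tregs (adjusted p = 3e-11) and -1.60 ± 0.20 in ST2- Tregs (2.27e-09). Colon was lower by 0.74 ± 0.23 on the log2 scale in ST2+ Tregs (adjusted p = 0.0283) and by 0.66 ± 0.19 in ST2- Tregs (0.0163), and both colon calls were lost when all 70 libraries were used (0.133 and 0.192). Leaving out mouse 1, 2 or 3 ended the call in colon ST2+ Tregs (0.0541, 0.0739 and 0.247), and leaving out mouse 2 or 5 that in colon ST2- Tregs (0.131 and 0.0665). Its level spanned 3.9-fold over the 14 groups, from 90.0 ± 36.0 CPM in skin ST2+ to 351 ± 24.8 CPM in spleen ST2- Tregs.

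Il1r1, the signalling IL-1 receptor, had counts in 17 of 67 libraries, and those lay in 5 groups. Colon ST2+ libraries held 12.6, 16.0 and 0 CPM, colon ST2- libraries 20.3, 16.0, 8.60, 0 and 8.17, skin ST2+ libraries 4.81, 10.3, 5.12, 24.0 and 0, skin ST2- libraries 0, 13.5, 20.3, 1.48 and 0.619, and lungs ST2- libraries 3.33, 0, 0, 1.10 and 1.84. Every library of the other 9 groups was at 0 counts.

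With the floor of 3 counts over the spleen group, Il1r1 was at least 36.4-fold higher than in spleen in colon ST2+ Tregs, 29.6-fold in skin ST2+ Tregs, 41.1-fold in colon ST2- Tregs and 27.1-fold in skin ST2- Tregs. Adjusted p was 0.0198, 0.00602, 0.0124 and 0.00672 in this order, and both colon calls were lost in DESeq2 (0.142 and 0.0513). Every spleen library was at 0, and Il1r1 passed the filter on low counts only through groups with counts. Its calls against spleen are therefore a description and no independent evidence. The colon ST2+ call was also lost without mouse 1, 2, 3 or 5 (0.0676, 0.0575, 0.131 and 0.051), and the colon ST2- call without mouse 2 or 3 (0.0619 and 0.0557). Fibroblasts and epithelium also express IL-1 receptor, and 5 fibroblast markers summed to 311 to 1001 CPM in colon ST2+, 6.95 to 679 in colon ST2-, 2.19 to 84.2 in skin ST2+ and 40.9 to 745 in skin ST2- Tregs, against at most 3.24 CPM in spleen. The 6 epithelial markers summed to 43.4 to 1053 CPM in colon, 88.4 to 1361 in skin and 37.6 to 202 in spleen. Of these, Epcam had counts in 65 of 67 libraries (median 70.2 CPM), while each keratin had a median of 0. In spleen Krt5 and Krt14 were at 0 in both populations, and in skin Krt8 was. Krt14 was at 0 in colon ST2+ Tregs, and Krt5 and Krt15 were in colon ST2- Tregs. The part of fibroblasts and epithelium in the Il1r1 result was not tested.

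**Figure D5:**
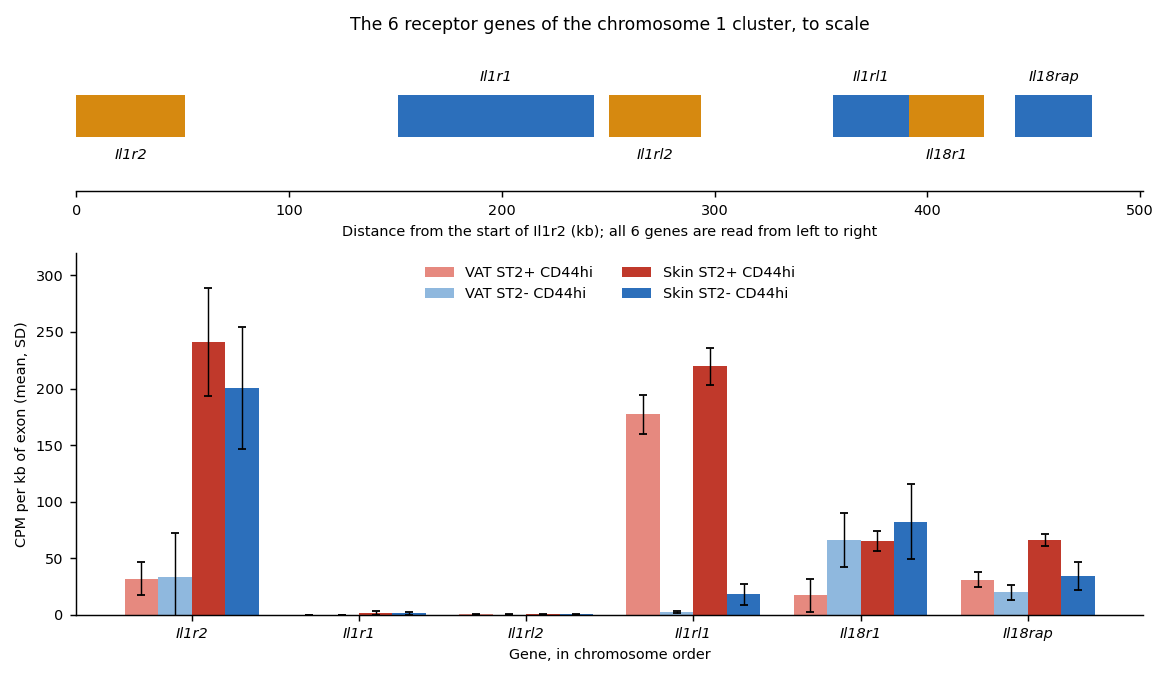
The 6 members on chromosome 1 drawn to scale by distance from the first gene's start, with bars for their level in ST2+ and ST2- Tregs of VAT and skin (CPM per kb, mean ± SD, n = 5; an SD that runs below 0 is cut at the axis). Il1rl1 and its neighbour Il18r1 went in opposite directions between ST2+ and ST2- Tregs of VAT, and Il1r2 had the most CPM per kb in skin.

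Il1rl2, the IL-36 receptor chain, was called by edgeR in no comparison of groups. It had 0 to 33.9 CPM per library and the highest group means in colon ST2+ Tregs (14.8 ± 17.2 CPM, n = 3), lungs cTregs (10.6 ± 11.2) and spleen ST2- Tregs (8.52 ± 5.49). Spleen ST2- libraries held 1.48, 12.8, 6.61, 15.2 and 6.48 CPM, and VAT ST2- libraries held 1 count in all against 103 in spleen. This is a ratio of 83.3 with an exact 95% counting interval of 14.6 to 3323, with an adjusted p of 0.0627 in the test over libraries. DESeq2 called this difference (adjusted p = 0.0304), as did voom (0.0089), which also called lungs (0.0160) and skin (0.0141) ST2- Tregs below spleen.

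Effector and central Tregs, both sorted as ST2-, were compared in spleen and lungs, and 3 of 8 members were called in each, Il18r1, Il18rap and Il1r2, all higher in ST2- CD44hi Tregs. Over all tested genes 4.98% were called in spleen and 5.57% in lungs, and 4.34% and 4.86% were higher. Il18rap held 0, 9.83, 2.35, 4.27 and 1.20 CPM in spleen cTregs and 0, 0, 7.69, 2.28 and 0.408 in lungs cTregs, below every ST2- CD44hi library of the same tissue. The difference was 3.82 ± 0.54 log2 units in spleen (adjusted p = 2.64e-07) and 5.71 ± 0.59 in lungs (3.65e-11), where ST2- CD44hi libraries held 92.6, 95.7, 156, 65.2 and 118 CPM.

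Il18r1 was present in cTregs, at 34.1, 43.0, 48.2, 39.5 and 33.3 CPM in spleen and 44.5, 54.6, 53.3, 71.7 and 21.6 in lungs. It was higher in ST2- CD44hi Tregs by 1.45 ± 0.35 in spleen (adjusted p = 0.00385) and 2.80 ± 0.36 in lungs (2.85e-08). The ligand-binding chain was measured in all cTreg libraries and the accessory chain was near 0 in several of them.

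Il1r2 had 1 count in the 5 spleen cTreg libraries together and 2029 in the spleen ST2- CD44hi libraries, a ratio of 1969 with an exact 95% counting interval of 353 to 77805 (adjusted p = 1.96e-10 over libraries). In lungs, cTregs held 0.747, 0, 0, 5.12 and 0.408 CPM, and the difference was 5.57 ± 0.85 log2 units (adjusted p = 1.8e-06). Il1rl1 had 13 counts in spleen ST2- CD44hi Tregs and 3 in spleen cTregs, a ratio of 4.20 (exact 95% counting interval 1.16 to 23.0) that the test over libraries did not call (adjusted p = 0.703). Sigirr differed by 0.14 ± 0.19 in spleen and 0.02 ± 0.19 in lungs without a call. Counting intervals cover counting error only, since reads without molecular identifiers are not independent molecules.

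Most neighbours in the order of the 14 groups did not differ by the test, although group means spanned 9.98-fold for Il18r1 and 215-fold for Il18rap. Neighbours have the closest means by the way they were picked, so few calls among them is a description. Neighbouring groups differed in 1 of 13 steps for Il18rap (spleen ST2- Tregs over spleen cTregs), 1 for Il1r2 (blood ST2- Tregs over lungs cTregs, 3.25 ± 0.94, adjusted p = 0.0266) and 1 for Sigirr (colon ST2+ over skin ST2- Tregs, 0.79 ± 0.23, adjusted p = 0.0113), and in none for Il18r1, Il1rap, Il1r1 and Il1rl2. Il18r1 ran from 396 ± 159 CPM in skin ST2- Tregs through 339 ± 34.9 in lungs ST2- and 317 ± 115 in VAT ST2- Tregs down to 82.5 ± 70.7 in VAT ST2+ Tregs, 49.1 ± 18.3 in lungs cTregs and 39.6 ± 6.23 in spleen cTregs. Il18rap ran from 447 ± 36.2 CPM in skin ST2+ Tregs and 229 ± 83.5 in skin ST2- Tregs to 3.53 ± 3.86 and 2.07 ± 3.28 in cTregs of spleen and lungs.

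For each member the genes with the most similar level over the 67 libraries were found by Pearson's r of log2 CPM, as a description, since libraries share tissue, population and depth. Il1rl1 was closest to Gata3 (0.905), the transcription factor of type 2 immunity, Ccr3 (0.850), a chemokine receptor, and Ctla2b (0.835). Il18rap was closest to the chemokine receptor Cxcr6 (0.922), Ttc39c (0.915) and S100a11 (0.905), and Il18r1 to Ttn (0.778), Cldnd1 (0.778) and Sema6d (0.751). Il1r2 was closest to Myo1e (0.866), Lpxn (0.866) and Rilpl2 (0.860), and Sigirr to Gimap1 (0.929), Ifi206 (0.887) and Gimap3 (0.880), of which the GIMAP genes encode GTPases of lymphocytes. Il1r1 was closest to Cyp2j6 (0.799), Hspb1 (0.741) and Ackr3 (0.739), Il1rl2 to Fbxw10 (0.566), Pheta2 (0.492) and Tmem260 (0.488), and Il1rap to Kif3c (0.433), Dis3 (0.404) and Zfp740 (0.378).

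The genes around the receptors were taken as a list of 38 ligands, adaptors, feedback regulators and ST2-associated genes, 31 of which were tested. Among 11 ligands and soluble regulators, 5 were tested and 0 were called by edgeR between ST2+ and ST2- Tregs in any tissue. Of their 30 gene-by-tissue values 6 had an unadjusted p under 0.05, DESeq2 called 1 (Il18 in blood) and limma with voom 4 (Il18 in blood and Il33, Il1b and Il18bp in colon). The other 6 were under the filter, Il1a with 81 counts, Il36rn with 8, Il36g with 6, Il36b with 3 and Il36a and Il1f10 with 0. All 14 adaptors and kinases of the pathway, from Myd88 to Chuk, were tested, and 0 of their 84 values between ST2+ and ST2- Tregs were called by edgeR, DESeq2 or voom, with 6 at an unadjusted edgeR p under 0.05. Over all tested genes, edgeR called from 0.0683% (colon) to 4.07% (blood) in these comparisons. At such shares, lists of this size can have 0 calls, so the zeros of both lists do not show equal levels. Against spleen, 8 of them were called in skin ST2+ Tregs (5 higher, 3 lower) and 9 in skin ST2- Tregs (5 higher, 4 lower), beside 29.1% and 30.9% of all tested genes. In colon 1 was called in ST2+ Tregs (Myd88, lower, -0.89 ± 0.29) and 2 in ST2- Tregs (Tab2 and Irak3, higher, 0.77 ± 0.25 and 2.71 ± 0.83), beside 10.4% and 11.1%, and edgeR called 0 in blood, lungs and VAT.

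Of the 4 feedback genes, Nfkbiz, which encodes an inducible regulator of NF-kB, was higher in ST2+ Tregs of lungs (1.16 ± 0.18 log2 units, adjusted p = 6.45e-05) and VAT (1.15 ± 0.18, 2.03e-05). Tnfaip3, the deubiquitinase A20, was higher in spleen (0.66 ± 0.16, adjusted p = 0.0435) and Nfkbia, an inhibitor of NF-kB, in VAT (0.61 ± 0.15, 0.0126). The Nfkbiz calls held in 13 of 13 alternatives, that of Nfkbia in 9 and that of Tnfaip3 in 7. Nfkbia lost its call without mouse 3 or 5 (adjusted p = 0.105 and 0.155) and with all 70 libraries (0.185), and fell below a fold change of 1.5 without mouse 1 (0.57 log2 units). Tnfaip3 lost its call without mouse 2, 3, 4 or 5 (0.764, 0.163, 0.217 and 0.145), with voom (0.0675) and with all 70 libraries (0.338). Voom added Nfkbiz in spleen (adjusted p = 0.0178) and colon (0.0048). Nfkbia in colon was added with all 70 libraries (0.0197), and Tnfaip3 in VAT with cell number as a covariate (0.0258). Averaged over the 6 tissues, Nfkbiz was higher by 0.71 ± 0.08 (adjusted p = 4.41e-10).

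Of 9 genes known to go with ST2 in Tregs, 8 were tested, and those called higher in ST2+ Tregs were 6 in blood, 3 each in spleen, lungs and VAT, and 1 each in colon and skin, with 0 lower. All tested genes were called, in either direction, at 4.07% in blood, 3.13% in VAT, 0.751% in lungs, 0.349% in spleen, 0.228% in skin and 0.0683% in colon. Gata3 was called in all 6 tissues, at 1.40 ± 0.13 log2 units in VAT, 1.37 ± 0.14 in lungs, 1.10 ± 0.14 in blood, 1.07 ± 0.13 in spleen, 0.89 ± 0.15 in colon and 0.71 ± 0.13 in skin. Klrg1, which encodes an inhibitory lectin receptor, was called in blood (5.35 ± 0.62), spleen (3.24 ± 0.53) and lungs (3.93 ± 0.55), and Areg, which encodes the repair factor amphiregulin, in blood (3.59 ± 0.50), lungs (1.34 ± 0.31) and VAT (1.38 ± 0.31). Il10 was called in blood (3.55 ± 1.02) and VAT (1.88 ± 0.35), Rora (1.52 ± 0.30) and Batf (1.09 ± 0.18) in blood, and Pparg in spleen (5.57 ± 1.35). The call of Gata3 in colon was lost without mouse 3 (adjusted p = 0.358), that of Areg in lungs without mouse 3 or 4 (0.203 and 0.101), that of Il10 in blood without mouse 1, 2, 4 or 5 (0.0675, 0.251, 0.0708 and 0.0697), and that of Pparg without any 1 of the 5 mice (0.0986 to 0.443). With voom, blood lost Areg (adjusted p = 0.201) and Il10 (0.422). Voom added Klrg1 in VAT (adjusted p = 0.0004) and colon (0.0209), Areg in colon (7.8e-05) and Rora in spleen (0.00325) and VAT (0.00349). It also added Pparg in blood (0.0427), lungs (0.00253), colon (0.0147) and VAT (0.00237). With all 70 libraries the calls of Rora in blood (0.0517), Areg in lungs (0.0545) and Pparg in spleen (0.0725) were lost. With mouse as a block, Klrg1 in VAT (1.70, adjusted p = 0.0161), Pparg in lungs (4.35, 0.0426) and Rora in spleen (1.10, 0.0385) were called too. The list was chosen with earlier results of these libraries known, so its direction is not independent evidence.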

How the data were processed

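Sorted cells were lysed directly, cDNA was made and amplified with the SMART-Seq v4 kit, and NexteraXT libraries were sequenced as single reads. The authors trimmed the reads, aligned them with STAR to GRCm38 and counted them per gene with HTSeq 0.4.1, and the deposited values are raw counts per Ensembl gene, with no molecular identifiers. The setting for strand and overlapping genes is not given in the sources used here, and 53360 of 53465 gene IDs were found in GENCODE M21.

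Libraries with more than 1000000 counts were kept. Counts were scaled with TMM factors, the 13179 protein-coding genes that reached 1 CPM in 10% of kept libraries were tested, and 1 model with 14 groups was fitted with edgeR 4.0.16 (quasi-likelihood F tests, R 4.3.3). Calls needed a difference of 1.5-fold or more and a p of 0.05 or less, adjusted by Benjamini-Hochberg over all tested genes of a comparison, and the F tests over several groups the adjusted p alone. The scripts were tested on simulated data. Log2 CPM for similar genes used a prior count of 2. A group at 0 counts was set to a floor of 3 counts over the group, and with 1 to 3 counts the ratio is given with an exact 95% interval.

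The numbers of mice in the labels mark the same animal. Deviations from group means of 2 libraries of the same mouse and tissue had a mean correlation of 0.116 over 27 pairs (-0.00229 to 0.318), against -0.0275 over 108 pairs of different mice. The main fit had no mouse term, since the methods of the study name none. There were 13 alternatives, among them limma 3.58.1 with voom and quality weights (the study's method), DESeq2 1.42.0, mouse as a block and each mouse left out; the one without libraries of fewer than 100 sorted cells was added after seeing the data. Members and lists were chosen with earlier results of these data known. Genes named are the members, listed genes called in at least 1 ST2 comparison or in the mean over tissues, 3 similar genes per member and listed markers. Percent aligned and gene coverage, on which the study also filtered libraries, were not used here.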

Additional observations from a re-analysis of the deposited data

Results flagged for a closer look

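Of 95 sets of 4 or 5 libraries of 1 group tested for 1 far library, 14 were marked by Dixon's test. Its nominal rate of 1 in 20 holds for normally distributed values. Where all other libraries of a set were at 0, 1 library with counts is marked in any case. The 14 can therefore not be set against that rate. For Il1rap, 1 library was far above the others in spleen ST2- Tregs (66.9 CPM, next 32.5) and in colon ST2- Tregs (60.9 CPM, next 31.7). For Il18rap, 1 library of skin ST2- Tregs was at 374 CPM (next 217). For Il1r2, the far libraries were at 208 CPM in lungs ST2- Tregs (next 30.1), 5.12 CPM in lungs cTregs (next 0.747) and 0.367 CPM in spleen cTregs, where the others were at 0. For Il1rl2, single libraries carried most of the counts in blood ST2+ Tregs (0.479 CPM), VAT ST2+ Tregs (3.56 CPM), blood ST2- Tregs (10.1 CPM, next 1.01), lungs ST2- Tregs (5.05 CPM), VAT ST2- Tregs (0.509 CPM) and skin ST2- Tregs (5.24 CPM). For Sigirr, the library of mouse 1 was the far one in both skin groups, the lowest of ST2+ Tregs at 27.6 CPM (next 91.9) and the highest of ST2- Tregs at 196 CPM (next 108).

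The ST2+ over ST2- difference varied among the 6 tissues for Il1rl1 (adjusted p = 0.000167, edgeR's F test of the interaction) and for Il18r1 (adjusted p = 0.000512), as described above. For Il1rl1, which encodes the marker of the sort, this is a description.

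Of the 3 libraries left out for low counts, blood ST2+ of mouse 1 and colon ST2+ of mouse 5 had Il1rl1 above the highest ST2- library of their tissue. Blood ST2+ of mouse 1 held 391 counts, or 800.1 CPM without TMM scaling, against at most 14.3 CPM in blood ST2- Tregs, and it also held 207 CPM of Il1rap against 11 to 50.7 CPM in the other blood ST2+ libraries and 0 counts of Sigirr and Il1r2. Colon ST2+ of mouse 5 held 19 counts, or 305 CPM, against at most 60.8 CPM in colon ST2- Tregs. Colon ST2+ of mouse 2 held 1 count of Il1rl1 among 3582 counts in all. In that library any gene with 1 count stands at 279 CPM, so its level cannot be judged.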

How the results depend on the processing

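Of 176 gene-by-comparison results of the members, 159 to 176 kept their side of the threshold under each alternative, and none reversed. The count of calls between ST2+ and ST2- Tregs apart from Il1rl1 went from 2 to 6 of 42 with limma voom and quality weights, which added Il18r1 in spleen (1.02, adjusted p = 0.00699) and Il18rap in spleen (1.58, 0.00161), lungs (0.93, 0.0436) and skin (0.96, 0.0235). The count of members called for the interaction was 1 to 2 of 8 over the fits that left out 1 mouse, and was 1 without mouse 2 and 1 without mouse 3. With mouse as a replicate block 3 results gained a call and 0 lost one, namely Il1rl1 in colon over spleen in ST2+ Tregs (1.28, adjusted p = 0.0225), Il1r2 in lungs over spleen in ST2- Tregs (-1.91, 0.0284) and Il1rl2 over the 6 tissues in ST2+ Tregs (adjusted p = 0.0481), and the block changed no other call of a member. Among the genes around the receptors it added 3 calls, given above, and ended none. Calls between tissues and spleen numbered 26 of 80, and 38 with voom.

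Shares of all genes called depend on the tool and on single mice. Between ST2+ and ST2- Tregs the count was 537 in blood (900 in DESeq2, 223 without mouse 3), 46 in spleen (100 in DESeq2, 221 with voom, 27 with all 70 libraries, 16 to 25 without 1 mouse), 99 in lungs (235, 349, 55 and 37 to 52), 413 in VAT (261 with all 70 libraries, 233 to 240 without 1 mouse), 9 in colon (24 in DESeq2, 293 with voom, 2 to 17 without 1 mouse) and 30 in skin (104, 58, 14 with all 70 libraries and 12 to 19). For the interaction it was 185 (477 in DESeq2, 298 with voom, 105 with all 70 libraries, 39 to 92 without 1 mouse). Against spleen in ST2+ Tregs it was 556 in blood (351 with the cell number as a covariate, 200 to 334 without 1 mouse), 647 in lungs (1441 with voom, 417 to 418), 1491 in VAT (986 without mouse 5) and 1369 in colon (2220 with voom, 454 to 905). In ST2- Tregs it was 471 in blood (284 with all 70 libraries, 710 in DESeq2, 930 with voom, 272 to 311), 544 in lungs (1429 with voom, 334), 786 in VAT (1236 with voom, 444 to 505) and 1460 in colon (2361 with voom, 806 to 940). Between ST2- Tregs and cTregs it was 656 in spleen (1530 with voom) and 734 in lungs (1231 with voom, 480 without mouse 3). The cause of these changes was not tested. Values of Il1r1 and Il1rl2 rest on few counts, and colon and blood ST2+ Tregs had n = 3 and n = 4.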

Other observations

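Beside the receptors, 2 cytokine genes of the list, chosen after their values were seen, were higher than in spleen in some groups by edgeR's quasi-likelihood test. Il33 had 257 counts in all libraries used and was called in colon ST2+ Tregs (0 to 75.3 CPM, 1 of 3 libraries at 0), in skin ST2+ Tregs (0 to 36.3 CPM, 3 of 5 at 0) and in skin ST2- Tregs, where 4 of 5 libraries were at 0 and 1 at 29.5 CPM. Every spleen library was at 0, so Il33 passed the filter on low counts only through libraries of other tissues. These calls against spleen are therefore a description and no independent evidence, and that in skin ST2- Tregs rests on 1 library. Il1b had 1212 counts and was called in VAT ST2+ Tregs and in colon of both populations. Neutrophil and monocyte markers summed to 643 to 850 CPM in colon ST2+ Tregs, where S100a8 and S100a9 were at 0. They summed to 20.3 to 182 CPM in colon ST2- Tregs, where Csf3r and Itgam were at 0. Over the 67 libraries Lyz2 reached 705 CPM, Csf1r 203 and Cd14 119, but Csf3r at most 5.26 and Itgam at most 6.44. Fibroblast markers reached 1001 CPM in colon. The part of such cells in these values was not tested.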
